A study of Sus scrofa with 18 samples.

Results

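Aquaporins are membrane channels that let water pass through cells, and a subgroup of them, the aquaglyceroporins, also lets glycerol pass. Their transcripts were followed in the muscular wall of the pig uterus. The members were 8 genes of the family chosen by symbol, namely AQP1, AQP3, AQP4, AQP5, AQP7, AQP8, AQP9 and AQP11, out of 24358 genes in the table, and AQP3 was chosen because its level differed between the muscle layers in these libraries. A total of 7 of the 8 members had a row, and AQP7 was not matched to an identifier and was not analysed here. Of these 7, AQP1, AQP3, AQP5, AQP9 and AQP11 reached 1 TPM (a length-corrected share of a library's transcripts) in at least 3 of the 18 libraries, whereas AQP4 and AQP8 stayed under that filter. AQP9 met it only by way of the LM libraries of a single group and is described without a test, which left 4 tested members.

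The myometrium has an inner circular muscle layer (CM), next to the endometrium, and an outer longitudinal muscle layer (LM). Both layers were taken, at the mesometrial side of the uterine wall, from each of 9 Yorkshire gilts. Of these, 3 had been naturally mated and were on day 12 of pregnancy (GD12), 3 had been naturally mated and were on day 15 of pregnancy (GD15), and 3 were unmated and on day 15 of their cycle (CD15). The sources name no transgene and no drug treatment. The endometrium had been cut away with a blade and the layers were parted by dissection, so each of the 18 libraries came from whole tissue and not from sorted cells. In such tissue a lower transcript level can come from fewer cells of a type or from less RNA per cell, and these cannot be told apart.

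Aquaporins differ in where they act. AQP1 is the water channel of blood vessel endothelium and red blood cells. AQP3, AQP7 and AQP9 are aquaglyceroporins, with AQP3 known from the basolateral membrane of many epithelia, AQP7 from adipocytes and AQP9 from the liver and from neutrophils. AQP11 belongs to a distant branch of the family and resides in membranes inside the cell, and AQP4, AQP5 and AQP8 are water channels best known from the brain, from glands and from the digestive tract.

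All 18 libraries carried smooth muscle transcripts, with 10 marker genes that summed to between 13491 and 53466 TPM. The markers of epithelium, which is not a muscle cell type, were read as the mean of log2(TPM + 1) over 10 genes that include EPCAM and KRT8. This level was between 4.92 and 6.13 in all 9 CM libraries. In LM it was between 1.53 and 1.63 at GD12 and between 2.21 and 3.30 at CD15, and at GD15 it was 0.80 in gilt 1, 4.75 in gilt 2 and 1.23 in gilt 3. A pair of LM libraries thus stood apart from their groups. GD15 gilt 2 had the epithelial level just given, and CD15 gilt 3 had 15210 TPM of smooth muscle markers against 38967 and 40619 TPM in the other CD15 LM libraries. Values that moved most without them are given beside the results.

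AQP3 (ENSSSCG00000040513, Sscrofa11.1 chromosome 10, 33045374 to 33050285) lay next to AQP7 in the annotation and was the aquaporin with the widest range of levels. In CM its level was 688, 79.6 and 707 TPM in gilts 1, 2 and 3 at GD12. It was 174, 45.6 and 14.8 TPM in the same order at GD15, and 194, 117 and 149 TPM at CD15. Gilt 2 at GD12 thus lay within the range of the GD15 libraries and below the CD15 libraries. The other GD12 gilts were above every other library. In LM the level was 2.08, 2.36 and 6.34 TPM at GD12, 0.61, 20.6 and 0.34 TPM at GD15, and 18.7, 12.6 and 5.75 TPM at CD15.

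CM exceeded LM for AQP3 in 9 of 9 gilts, which is the property the gene was chosen for and is described here without a test. Within a gilt, the ratio of CM to LM was 331, 33.7 and 112 at GD12, 284, 2.21 and 43.5 at GD15, and 10.4, 9.25 and 26.0 at CD15. The mean of the within-gilt differences of log2(TPM + 1) was 6.33 ± 1.63 at GD12, 3.81 ± 2.83 at GD15 and 3.63 ± 0.74 at CD15 (SD, n = 3 gilts). It was 5.16 at GD15 without gilt 2 and 3.21 at CD15 without gilt 3. The layers did not overlap at GD12 or at CD15. They overlapped at GD15, where LM of gilt 2 at 20.6 TPM was above CM of gilt 3 at 14.8 TPM, and gilt 2 was also the gilt with the high epithelial level in LM.

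AQP11 (ENSSSCG00000014880, chromosome 9, 12065550 to 12076339) was higher in CM than in LM in all 3 states. In CM it was at 28.7, 15.5 and 36.3 TPM at GD12, 41.0, 21.2 and 14.9 TPM at GD15, and 61.6, 27.6 and 52.8 TPM at CD15. In LM it was at 2.09, 1.67 and 4.02 TPM at GD12, 2.49, 10.3 and 2.71 TPM at GD15, and 12.2, 6.04 and 12.1 TPM at CD15. The layers did not overlap in any state, and CM was above LM in 9 of 9 gilts. The share of all genes whose layers did not overlap was not counted, for AQP11 or for AQP3 and AQP1.

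The layer difference of AQP11 was tested with limma over all 15343 genes kept, with the gilt as a block, and passing required an adjusted p under 0.05 with a change of more than 1 on the log2 scale in either direction. AQP11 passed with a log2 fold change of 2.93 ± 0.39 (SE, limma adjusted p = 0.00067) at GD12. At GD15 the log2 fold change was 2.22 ± 0.39 (limma adjusted p = 0.004), and at CD15 it was 2.1 ± 0.39 (limma adjusted p = 0.0062). It was the 1 gene that passed among AQP1, AQP5 and AQP11, the 3 members tested between the layers, in each state, where 15.9% of all genes tested passed at GD12, 14.4% at GD15 and 12.7% at CD15. Calls toward CM were 84.7%, 75.3% and 93% of all calls, and they were 70%, 63.3% and 75.5% after median-ratio scaling and 60.7%, 55.6% and 68.1% after quantile normalization. At GD15 gilt 2 had the smallest within-gilt difference of AQP11, 0.97 on the log2 scale, and without that gilt the log2 fold change was 2.84.

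**Figure D1:**
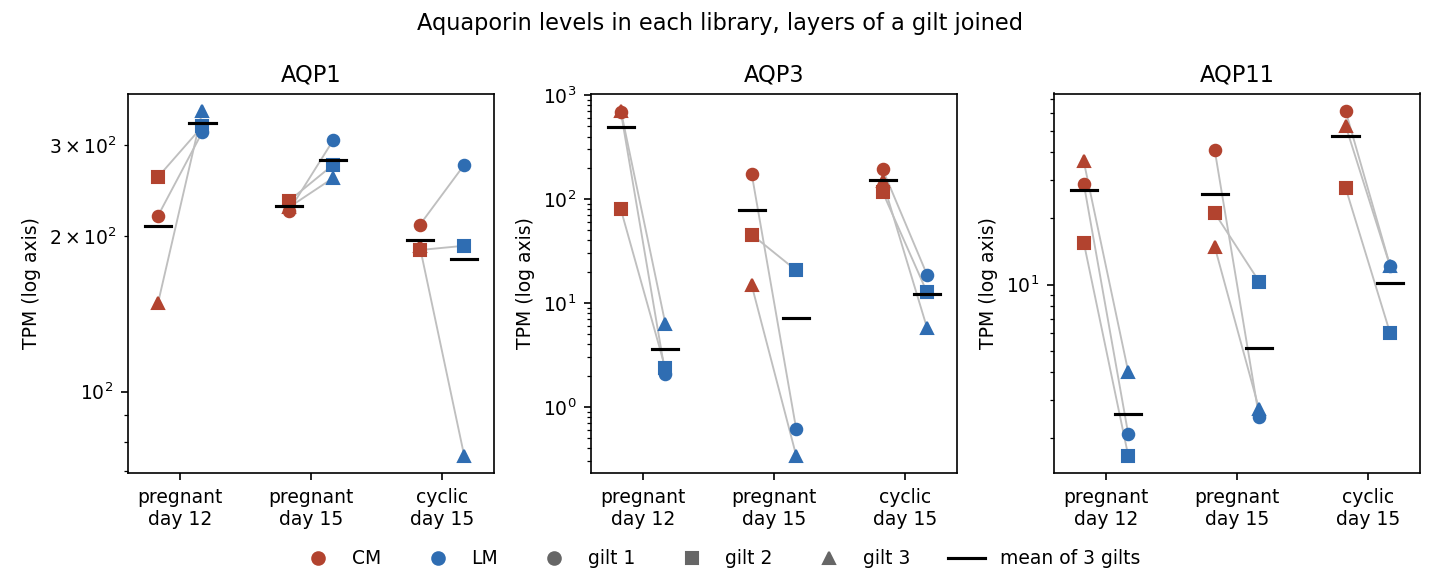
Level of AQP1, AQP3 and AQP11 in TPM on a log axis in each of 18 libraries, by state, with CM in red and LM in blue, a grey line joining the layers of a gilt and a black bar at the mean of 3 gilts. For AQP3 and AQP11 every line falls from CM to LM, with the flattest line in GD15 gilt 2, whereas AQP1 was higher in LM in all gilts except CD15 gilt 3.

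AQP1 (ENSSSCG00000033190, chromosome 18, 42063482 to 42076741) was present at more than 75 TPM in every library and did not pass between the layers in any state. In CM it was at 219, 260 and 148 TPM at GD12, 224, 234 and 227 TPM at GD15, and 210, 188 and 191 TPM at CD15. In LM it was at 319, 327 and 350 TPM at GD12, 307, 275 and 259 TPM at GD15, and 275, 192 and 75.1 TPM at CD15. In both pregnant states LM lay above CM without overlap, and the lowest of the 18 values was that of CD15 gilt 3 in LM, a library that stood apart.

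The log2 fold change of AQP1 from LM to CM was -0.70 ± 0.31 at GD12 (SE, 95% interval -1.39 to -0.01, limma adjusted p = 0.14), in the same direction in 3 of 3 gilts. It was -0.29 ± 0.31 at GD15 (limma adjusted p = 0.57), also in the same direction in 3 of 3 gilts. At CD15 it was 0.31 ± 0.31 (limma adjusted p = 0.51), and it turned to -0.21 without gilt 3 and to -0.10 after median-ratio scaling. Over all genes the median log2 fold change was 0.23, 0.19 and 0.33 toward CM at GD12, GD15 and CD15, and median-ratio scaling moved it to 0.00, 0.02 and -0.01. After that scaling AQP11 passed with log2 fold changes of 2.71, 2.05 and 1.70.

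The remaining members were near the lower limit of the filter. AQP9 (ENSSSCG00000004597, chromosome 1, 113798380 to 113848452) ranged from 0 to 1.98 TPM and reached 1 TPM in 4 libraries, among them the 3 LM libraries at CD15 with 1.03, 1.13 and 1.98 TPM. The CM libraries at CD15 had 0.62, 0.49 and 0.84 TPM of AQP9, and the pregnant LM libraries also had lower levels than the cyclic ones. These cyclic LM libraries brought the gene past the filter, so no test is given. Neutrophil markers summed to 371 TPM in the CM library and 315 TPM in the LM library of GD15 gilt 2, and to at most 14.9 TPM in the other libraries, and AQP9 was at 0.15 and 0.25 TPM in that gilt.

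AQP5 (ENSSSCG00000000211, chromosome 5, 15876527 to 15879608) ranged from 0.20 to 2.35 TPM in CM and from 0.67 to 1.95 TPM in LM, and the layers overlapped in every state. Its log2 fold changes from LM to CM were -0.09, -0.23 and -0.45 at GD12, GD15 and CD15, and none passed. AQP4 (ENSSSCG00000035965, chromosome 6, 111407632 to 111422169) lay between 0.06 and 0.70 TPM in all 18 libraries. AQP8 (ENSSSCG00000031865, chromosome 3, 21493564 to 21503778) was listed at 0 in 15 of 18 libraries and was at 0.31 TPM in the highest.

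Other genes of the family added little to the total. AQP6, a vesicle channel known from the kidney that lies beside AQP5 on chromosome 5, was above LM in CM in 9 of 9 gilts at levels of at most 2.64 TPM. It reached 1 TPM only in CM libraries and met the filter through them, so no test is given, and after quantile normalization its log2 difference at GD12 turned to -0.04. AQP10 reached 1.69 TPM at most, MIP 0.14 TPM, and AQP2 was listed at 0 in all 18 libraries.

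TPM is corrected for gene length, so levels can be set side by side between the genes of a library. The TPM of the 11 aquaporin genes with a row summed to between 259.5 and 939 in CM and between 97.7 and 363 in LM. AQP1 took from 76.8 to 98.1% of this sum in LM and from 16.5 to 87.6% in CM. AQP3 took from 5.70 to 78.8% in CM and from 0.13 to 6.67% in LM, and it exceeded AQP1 in only 2 of 18 libraries, CM of GD12 gilts 1 and 3. AQP11 took from 3.06 to 13.3% in CM and from 0.50 to 12.4% in LM, where the highest share was in CD15 gilt 3, the library with the lowest AQP1.

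**Figure D2:**
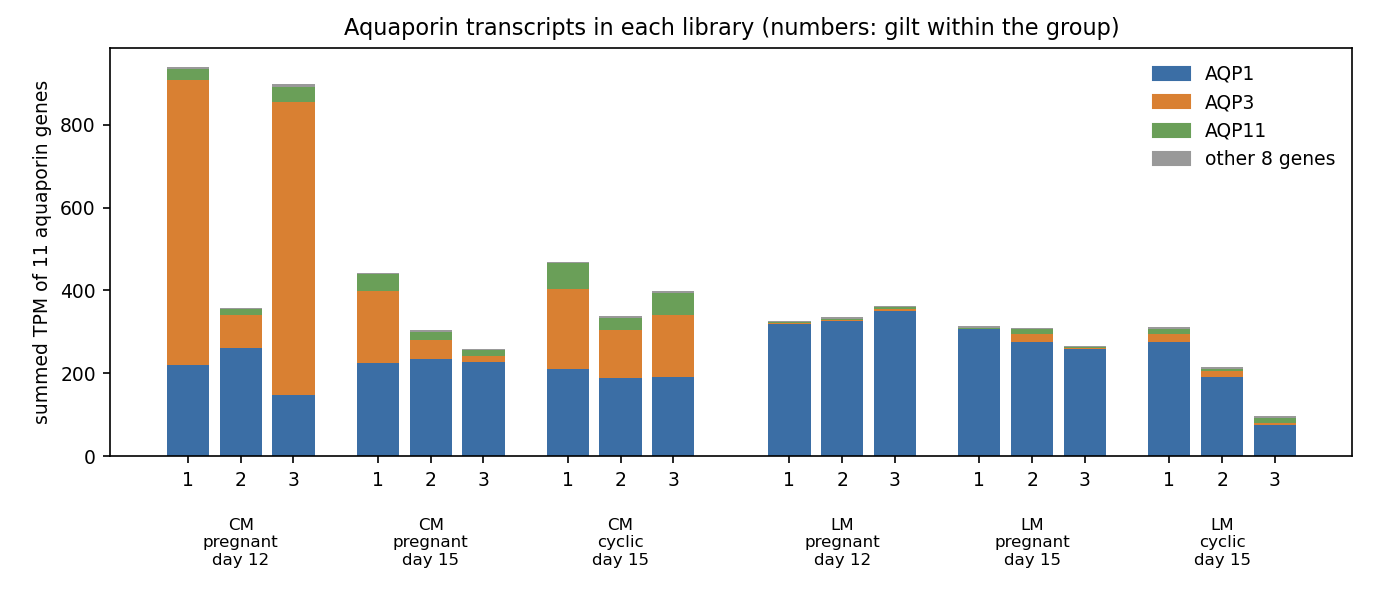
Stacked bars of the summed TPM of 11 aquaporin genes in each of 18 libraries, CM on the left and LM on the right, with AQP1, AQP3, AQP11 and the other 8 genes in separate colours. The bars of CM at GD12 gilts 1 and 3 are mostly AQP3, at 73.3 and 78.8% of the sum, whereas AQP1 made up at least 76.8% of every LM bar.

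AQP3 and AQP11 were set against the epithelial markers, since those moved with the layers as well. Lists were counted between the layers over the 13741 genes that reached 1 TPM in at least 3 libraries of each layer, of which 11.8%, 9.54% and 10.6% passed as higher in CM at GD12, GD15 and CD15 and 2.58%, 3.76% and 0.888% as lower. Of the 8 epithelial markers among them, 8 passed as higher in CM in each state, with median log2 fold changes of 4.57, 3.78 and 3.37. The sum of the 10 matched markers was between 959.5 and 2369 TPM in CM. In LM it was between 38.0 and 55.5 TPM at GD12, between 9.36 and 694 TPM at GD15 and between 119 and 295 TPM at CD15. No marker was at 0 in all 18 libraries. Of 4 markers of ciliated epithelium, FOXJ1 and CFAP299 passed as higher in CM in each state. The part of epithelial cells in the layer differences of AQP3 and AQP11 was not tested.

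Within LM the AQP3 level followed the epithelial level over the 9 libraries (Pearson r = 0.86, Spearman rho = 0.90, and r = 0.88 without the 2 libraries farthest from the median marker level). Within CM the relation was weaker, with r = 0.47 and rho = 0.35, and r was -0.17 without the 2 farthest libraries. For AQP11 the values were r = 0.76 and rho = 0.73 in LM (0.72 without the 2 farthest), and r = 0.59 and rho = 0.60 in CM (-0.01 without them). The libraries of a state share that state, and TPM values of a library share its total. Over the 11 marker lists compared, the r of AQP3 in CM ran from -0.86 for macrophages to 0.85 for mesothelium.

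The level of AQP3 relative to the epithelial markers also varied in CM. On the log2 scale AQP3 was above the mean epithelial level by 2.87 ± 1.43 at GD12, 0.13 ± 1.55 at GD15 and 1.61 ± 0.18 at CD15 (SD, n = 3 gilts). In LM the same difference was 0.50 ± 0.69, -0.41 ± 0.36 and 0.98 ± 0.44. AQP11 stood at -0.82 ± 0.26, -0.91 ± 0.76 and -0.11 ± 0.26 relative to the epithelial markers in CM, and at 0.21 ± 0.46, 0.14 ± 1.21 and 0.79 ± 0.62 in LM. Whereas raw AQP11 fell from CM to LM, its level relative to these markers had a higher mean in LM in each state.

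**Figure D3:**
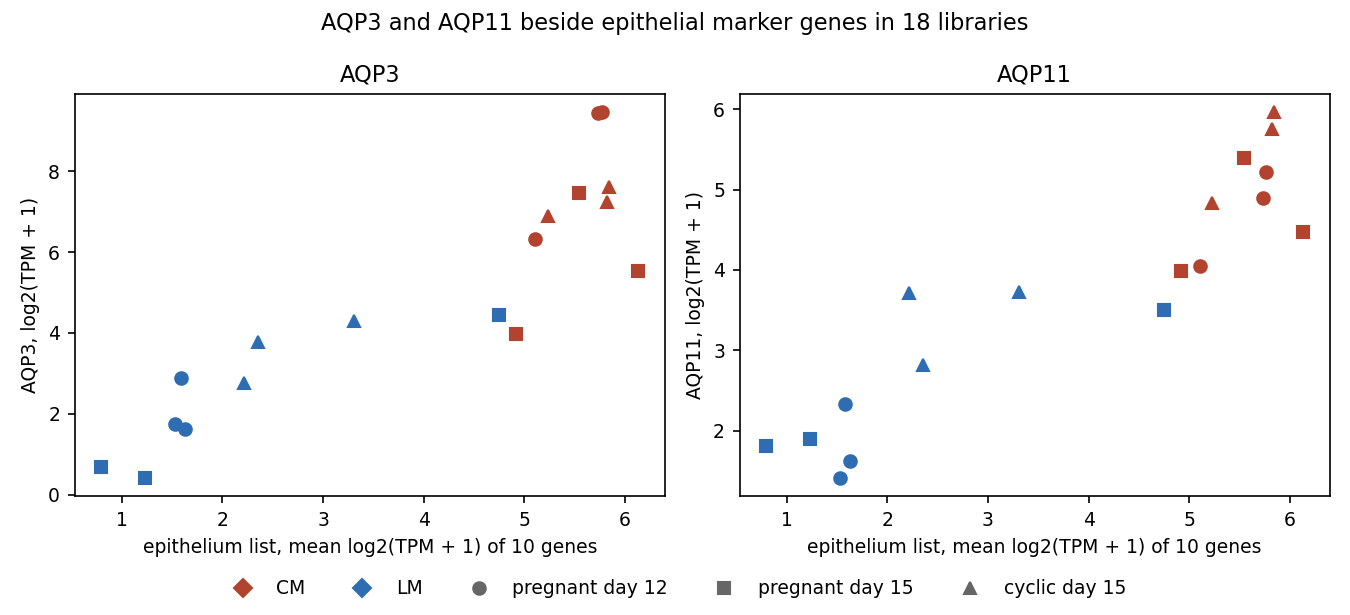
Level of AQP3 (left) and AQP11 (right) as log2(TPM + 1) against the mean log2(TPM + 1) of 10 epithelial marker genes in 18 libraries, with CM in red, LM in blue and the state given by the symbol. The LM library of GD15 gilt 2, at a marker level of 4.75, lies near the CM libraries on both axes.

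For AQP1, markers of blood endothelium and red blood cells were read beside it. Of 9 blood endothelium markers, 0 passed between the layers in any state by limma, and 2, 3 and 3 were at an unadjusted p below 0.05 at GD12, GD15 and CD15, against 32.1%, 30.1% and 32.4% of all genes. Their sums lay between 223 and 431 TPM in CM and between 114 and 289 TPM in LM. Of 4 red blood cell markers, 1 passed as higher in CM at GD12 and at GD15, and 0 at CD15. Of all genes, 11.8%, 9.54% and 10.6% did so in the order GD12, GD15 and CD15. The 1 marker was the hemoglobin gene HBB, with log2 fold changes of 2.97 ± 0.49 (limma adjusted p = 0.0024) and 2.45 ± 0.49 (limma adjusted p = 0.0078). HBM, ALAS2 and EPB42 did not pass in any state. CD15 LM of gilt 3 had the lowest endothelial sum, 114 TPM, the highest red blood cell sum, 1495 TPM, and the lowest AQP1, 75.1 TPM. Over the marker lists compared, the r of AQP1 in LM ran from -0.89 for red blood cells to 0.93 for smooth muscle. Without the 2 libraries farthest from the median marker level these were -0.62 and 0.26. In CM the r of AQP1 ran from -0.56 for mesothelium to 0.60 for adipocytes. The part of these cell types in the AQP1 levels was not tested.

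The states were compared within each layer to ask whether pregnancy or its day changed aquaporin levels. In CM the 4 tested members were AQP1, AQP3, AQP5 and AQP11, and 0 passed by limma in any of 3 comparisons, where 0.027% of all genes tested passed between GD15 and GD12, 0.155% between GD15 and CD15 and 0.216% between GD12 and CD15. At an unadjusted p below 0.05 there was 1 member between GD15 and GD12, AQP3, against 15.5% of all genes, and 0 members in each of the other comparisons. The log2 fold change of AQP3 from GD12 to GD15 was -2.75 ± 0.96 (SE, 95% interval -4.91 to -0.60, limma adjusted p = 0.22), and it ran from -3.79 to -1.91 when libraries were left out in turn.

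AQP3 in CM did not pass against the cyclic gilts either, with a log2 fold change of -1.58 ± 0.96 for GD15 (limma adjusted p = 0.46) and 1.17 ± 0.96 for GD12 (limma adjusted p = 0.56). The spread between gilts was wide for this gene. Its within-group SD was 1.46 in CM and 1.43 in LM on the log2 scale, larger than that of 99.4% and 98.9% of the genes tested, whereas the median gene had 0.31 in CM and 0.48 in LM. AQP1 had the smallest SD of the tested members in CM, 0.25, and its differences between states in CM were 0.22 or less on the log2 scale.

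For AQP11 in CM the log2 fold change against cyclic gilts was -0.90 ± 0.44 at GD15 (limma adjusted p = 0.36) and -0.80 ± 0.44 at GD12 (limma adjusted p = 0.38). Between GD15 and GD12 the estimate was -0.10 ± 0.44. The intervals of all of these included 0, and the CM libraries of the groups overlapped.

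In LM the same 4 members were tested, and 0 passed by limma in any of 3 comparisons. Of all genes tested, 0% passed between GD15 and GD12, 0.178% between GD15 and CD15 and 1.04% between GD12 and CD15. At an unadjusted p below 0.05 there were 0 members between GD15 and GD12, 0 between GD15 and CD15 and 2 between GD12 and CD15 (AQP1 and AQP11), against 4.93%, 12% and 19.7% of all genes. The estimate for AQP11 from CD15 to GD12 was -1.63 ± 0.50 (limma adjusted p = 0.13), and the GD12 values of 1.67 to 4.02 TPM lay below the CD15 values of 6.04 to 12.2 TPM.

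The estimate for AQP1 in LM from CD15 to GD12 was 1.06 ± 0.42 (limma adjusted p = 0.21), and from CD15 to GD15 it was 0.82 ± 0.42 (limma adjusted p = 0.46). Without LM of CD15 gilt 3 they were 0.53 ± 0.16 (limma adjusted p = 0.045, under the fold required) and 0.29 ± 0.16 (limma adjusted p = 0.31). AQP3 had -1.76 ± 0.97 from CD15 to GD15 (limma adjusted p = 0.49) and -1.52 ± 0.97 from CD15 to GD12 (limma adjusted p = 0.41).

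These LM estimates included the libraries that stood apart. Without LM of GD15 gilt 2 and CD15 gilt 3, a choice made after seeing the data, 0.0294% of all genes tested passed between GD15 and GD12, 2.33% between GD15 and CD15 and 11.5% between GD12 and CD15. In that fit AQP3 passed as lower at GD15 than at CD15 with -3.48 ± 0.45 (limma adjusted p = 0.016) and as lower at GD12 with -1.95 ± 0.41 (limma adjusted p = 0.017). AQP11 then also passed as lower at GD12, with -1.48 ± 0.37 (limma adjusted p = 0.028). With both left out, GD15 was read from gilts 1 and 3 and CD15 from gilts 1 and 2. The libraries left out held the highest AQP3 of LM, 20.6 TPM in GD15 gilt 2, and the lowest of the CD15 LM libraries, 5.75 TPM in gilt 3. AQP3 in LM also followed the epithelial level by which GD15 gilt 2 stood apart. This fit therefore cannot decide whether AQP3 differed between the states. No member passed when either library was left out alone. The epithelial markers moved with this contrast as well, being at 2.36 to 3.30 in the CD15 libraries that remained and at 0.80 to 1.63 in the pregnant libraries that remained, and their part was not tested.

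**Figure D4:**
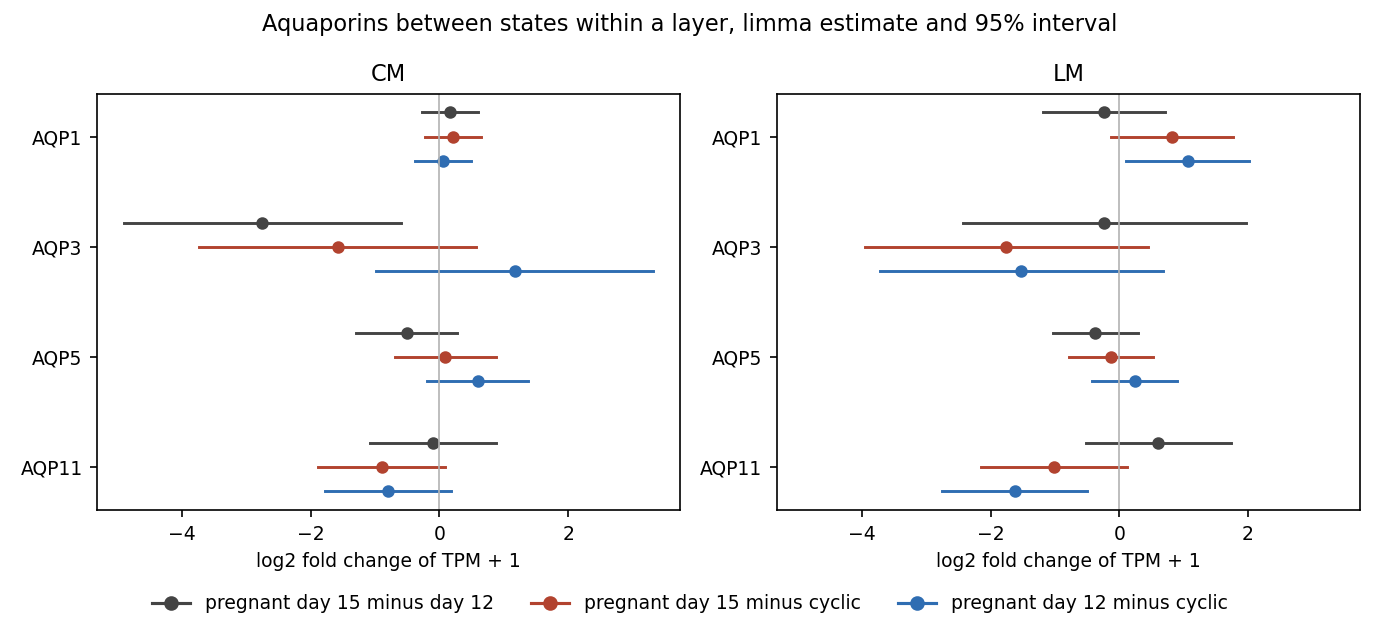
Log2 fold change of TPM + 1 between states within CM (left) and LM (right) for the 4 tested members, as limma estimates (points) with 95% intervals (lines). The intervals of AQP3 span several log2 units in both layers, and those of AQP1 in CM are the narrowest of that layer.

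The difference between the layers was also compared between states. AQP3, chosen for this difference, was left untested here as well. Of AQP1, AQP5 and AQP11, the 3 members tested, 0 passed by limma for the change of the layer difference, where 0.0196% of all genes tested passed between GD15 and GD12, 0.189% between GD15 and CD15 and 0.13% between GD12 and CD15. At an unadjusted p below 0.05 there were 0, 0 and 1 members in the same order, against 6.94%, 9.4% and 9.22% of all genes. The 1 member was AQP1, with -1.01 ± 0.44 (SE, limma adjusted p = 0.53) between GD12 and CD15 and -0.49 ± 0.27 without CD15 gilt 3 (limma adjusted p = 0.44). For AQP11 the estimates were 0.83 ± 0.55 between GD12 and CD15 and -0.71 ± 0.55 between GD15 and GD12.

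Genes that work with aquaporins were counted from fixed lists. In epithelial ion transport, which sets the osmotic gradients that water follows, 3, 2 and 3 of 8 genes passed as higher in CM at GD12, GD15 and CD15, against 11.8%, 9.54% and 10.6% of all genes, and 0 as lower. The list medians were 0.90, 0.66 and 0.9996 against 0.21, 0.17 and 0.31 over all genes. The epithelial sodium channel subunit SCNN1A had 44.6 ± 10.3 TPM in CM at GD12 against 0.98 ± 0.29 TPM in LM (SD, n = 3), and its log2 fold changes were 4.51, 3.35 and 3.44. The chloride channel CFTR met the filter through CM alone and was not counted. These genes are epithelial, and the epithelial markers given above moved with them.

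In the osmotic response list 2, 1 and 2 of 8 genes passed as higher in CM and 0 as lower, beside the same shares of all genes. The taurine transporter SLC6A6 passed in all 3 states with log2 fold changes of 2.33, 1.79 and 2.08, and the osmosensitive cation channel TRPV4 passed at GD12 and CD15 with 1.55 and 1.505. Of 11 genes of glycerol metabolism, the lipoprotein lipase LPL passed as higher in CM at GD12 (1.73). That was 1 of 11 genes, or 9.09%, against 11.8% of all genes. The monoacylglycerol lipase MGLL, which releases glycerol, passed as lower in CM at GD12 (-2.58) and GD15 (-3.02), at 153 ± 77.7 TPM in CM against 857 ± 120 TPM in LM at GD12. It was the 1 of 11 genes that passed as lower in these states, against 2.58% and 3.76% of all genes. At CD15 0 genes of that list passed by limma and 3 of 11 were at an unadjusted p below 0.05, against 32.4% of all genes. In the same contrasts the 8 epithelial markers passed as higher in CM, and 1, 5 and 0 of 10 smooth muscle markers passed as lower, and their part in the values of both lists was not tested.

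Of 7 genes of the complex that anchors AQP4 at the membrane in brain and muscle, the syntrophin SNTB1 passed as higher in CM in all 3 states (2.73, 1.54 and 1.87). That was 1 of 7 genes, or 14.3%, in each state, against 11.8%, 9.54% and 10.6% of all genes at GD12, GD15 and CD15. The dystrobrevin DTNA passed as lower in CM at GD12 (-1.37) and GD15 (-2.48), and DMD, the gene of dystrophin, and SNTB2 did so at GD15 (-1.51 and -1.61). The list had 1, 3 and 0 of 7 genes as lower in the same order, against 2.58%, 3.76% and 0.888% of all genes. Of the 10 smooth muscle markers, 5 also passed as lower in CM at GD15, among them the actin ACTG2 (-1.66) and the smoothelin gene SMTN (-1.76). As lower in CM, 1, 5 and 0 of these markers passed at GD12, GD15 and CD15, against 5, 7 and 0 after median-ratio scaling, 1, 3 and 0 after quantile normalization, and 3, 5 and 0 without both gilts whose LM library stood apart. Their part in the values of this list was not tested. AQP4 itself remained at or below 0.70 TPM. Of 10 genes of vasopressin and cAMP signaling, the phosphodiesterase PDE4D passed as lower in CM in both pregnant states (-1.37 and -1.94), and the adenylate cyclase ADCY6 as higher at CD15 (1.62). Each was 1 of 10 genes, against 2.58% and 3.76% of all genes as lower at GD12 and GD15 and 10.6% as higher at CD15. Between states within a layer, 0 of 270 tests of genes from these 5 lists passed by limma, and 38, or 14.1%, were at an unadjusted p below 0.05, against 14.2% over all genes in the same comparisons.

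The genes most like each member were read from the Pearson r of log2(TPM + 1) over 18 libraries, among 12201 genes with a symbol that passed the filter, as a description. For AQP3 these were ATP6V0D2 (r = 0.99), a subunit of the vacuolar proton pump, then THEM5 (0.98), SPDEF (0.97), an epithelial transcription factor, CPN1 (0.97) and RHOV (0.96). Their r stayed between 0.91 and 0.97 within the 9 CM libraries and between 0.82 and 0.96 within the 9 LM libraries. ATP6V0D2 had 137, 28.2 and 198 TPM in CM at GD12 and at 34.9, 21.9 and 2.55 TPM in CM at GD15, with the same low gilt at GD12 and the same order of gilts at GD15 as AQP3.

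For AQP11 the nearest genes were RANBP17, CDKL2, FOXA2, TMEM238 and CFAP276, all at r = 0.97, with values between 0.83 and 0.95 within CM and between 0.92 and 0.96 within LM. FOXA2 is the transcription factor of uterine glands. For AQP1 they were ADAMTSL4 (0.94), EMILIN1 (0.94), SEPTIN9 (0.93), PLCB3 (0.93) and ACTN1 (0.93), whose r was 0.97 to 0.98 within LM and 0.46 to 0.58 within CM. That likeness rested in part on LM of CD15 gilt 3, and over the other 17 libraries it was 0.82 to 0.86.

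The low members had looser neighbours. For AQP5 these included SRSF6 (0.78), TINF2 (0.73), PPP1R1A (0.72) and PLK1 (0.70), and for AQP9 they were MED28 (0.86), YIPF5 (0.84), MS4A7 (0.84), CSE1L (0.82) and MRPL57 (0.82). Without LM of CD15 gilt 3 the r of the AQP9 neighbours was 0.70 to 0.78 over 17 libraries.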

How the data were processed

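Total RNA of 18 libraries was sequenced as paired reads. The authors used HISAT2 2.1.0 for alignment to Sscrofa11.1, then HTSeq 0.9.1 to assign reads to Ensembl genes, per the submitters' processing notes and the methods. The deposited values are TPM, and the gene lengths and strand setting behind them are not given in the sources used here. Read depth is unknown from TPM, so no counting error was attached, and 15650 to 17746 genes per library were above 0. A total of 4618 genes were at 0 in every library, and 0 columns were unused. Genes that overlap on opposite strands could not be told apart, but no annotated gene overlapped the 7 measured members. The nearest, LOC106508225, lay 65 bases from AQP1. Coordinates are those of RefSeq on Sscrofa11.1, matched by symbol.

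Members, lists and tests were chosen with earlier results of these data known. Groups followed the labels, and each library came from a separate gilt and layer. The tests were run in limma 3.58.1 (R 4.3.3) on log2(TPM + 1), with a variance trend, and fold changes are on that scale, which understates low genes. A gene entered a fit if 3 or more of its libraries reached 1 TPM, and p-values were adjusted over all of them by the Benjamini-Hochberg method. Layers and changes of the layer difference used all 18 libraries and a term for each gilt, whereas states used the 9 libraries of a layer without pairs, as in the methods. The authors used a count model that cannot be applied to TPM. Same-numbered layers were taken as the same gilt, as read from the numbered titles, since the methods pair the layers. Deviations from the group means correlated at 0.19 to 0.53 in 9 of 9 such pairs and at -0.44 to 0.06 in others. Deviations cancel within a group, so high values in the same-numbered pairs lower the others. AQP3 got no test between layers or for changes of the layer difference, and AQP9 and AQP6 are described only, since one group or layer brought them past the filter. The procedure was tested on simulated data.

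Named were every member in every comparison and up to 4 passing genes of a list with the largest change. For each member past the filter over 18 libraries, AQP9 included, the 5 genes with the highest r were named. One gene that this rule names is not reported here. Cell type lists of lymphatic endothelium, adipocytes and skeletal muscle were also read. Of 5 lymphatic genes, 3, 1 and 0 passed as higher in CM at GD12, GD15 and CD15, and smooth muscle genes passed as lower in CM for 1, 5 and 0 of 10. Beside these lists and the next, 11.8%, 9.54% and 10.6% of all genes passed as higher and 2.58%, 3.76% and 0.888% as lower. Of 5 adipocyte genes tested, 1 passed in each direction at GD12 and 1 as lower at GD15. Of 2 skeletal muscle genes tested, 1 passed in each direction at GD12 and 1 as lower at GD15. Lists were counted between layers only over genes that met the filter within each layer, a choice made after seeing the data. Of 5 genes of the carbonic anhydrase family, 1 passed as higher and 2 as lower at GD12 and at GD15. In all states 0 of 1 mesothelial, 0 of 1 neutrophil and 0 of 7 macrophage genes passed by limma, with 1, 1 and 0 mesothelial genes at GD12, GD15 and CD15 and 3 macrophage genes at GD15 at an unadjusted p below 0.05. The share of all genes at such a p was 32.1%, 30.1% and 32.4% at GD12, GD15 and CD15. The pseudocount was also set to 0.1 or 5, and the filter was dropped or replaced by a mean of 5 TPM. Other settings were scaling by median ratios or quantiles, a fit without the variance trend, without the gilt term, with a replicate block or with a random gilt effect, and fits that dropped each gilt or library in turn. Dropping the gilts or libraries that stood apart together was chosen after seeing the data. Plots were drawn with matplotlib 3.10.9.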

Additional observations from a re-analysis of the deposited data

How the results depend on the processing

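Counts of aquaporins that passed stayed the same in 195 of 197 alternatives. The exceptions left out both LM libraries that stood apart, where 1 member passed between GD15 and CD15 and 2 between GD12 and CD15 in LM, against 0 with all libraries and 0 with either left out alone. Of all genes, 2.33% and 11.5% passed in that fit, against 0.178% and 1.04% with all libraries. AQP11 passed between the layers under every alternative run. Among the tested values, only the layer differences of AQP11 passed with all libraries, and none of these changed sign. Of the AQP3, AQP11 and AQP1 values that had not passed, 13 changed sign. With a pseudocount of 5, AQP3 between GD15 and GD12 in LM became 0.13, and the change of the layer difference between GD15 and CD15 became -0.17 for AQP11. Median-ratio scaling gave -0.10 for AQP1 between the layers at CD15, and -0.21 was found without both gilts whose LM library stood apart.

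Leaving out libraries or gilts in turn gave -1.53 to 0.48 for AQP3 between GD15 and GD12 in LM, and -0.57 to 0.74 for the change of the AQP11 layer difference between GD15 and CD15. It gave -0.21 to 0.66 for AQP1 between the layers at CD15, -0.12 to 0.28 for AQP1 between GD12 and CD15 in CM, -0.064 to 0.34 for AQP1 between GD15 and GD12 in CM, and -0.49 to 0.21 for AQP11 between GD15 and GD12 in CM. The cause was not tested.

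Without the block of gilts in the layer comparisons AQP11 was at limma adjusted p = 0.00093, 0.009 and 0.013. Replicate numbers do not pair gilts across states, and adding a replicate block there changed no call (AQP3 between GD15 and GD12 in CM, limma adjusted p = 0.2). Over all genes, 146 passed between GD12 and CD15 in LM, against 262 with median-ratio scaling and 314 with quantile normalization. For changes of the layer difference the counts were 3, 29 and 20, and 12, 55 and 21 with quantile normalization. With median-ratio scaling, 11 in place of 20 passed between GD12 and CD15. For the lists of epithelium, ciliated epithelium, blood endothelium, ion transport, osmotic response, glycerol metabolism, AQP4 anchoring and vasopressin signaling, either scaling moved a count in a direction by at most 1 gene (7 of 8 epithelial markers passed at CD15 with median ratios). Without both gilts whose LM library stood apart, 4, 3 and 2 of 8 ion transport genes, 2, 1 and 1 osmotic genes and 8, 8 and 8 epithelial markers passed as higher in CM, 1, 4 and 1 anchoring genes and 1, 1 and 1 glycerol genes as lower, and 1389 genes passed at CD15 against 1944. Low TPM and unknown depth limit what can be said of AQP4, AQP5, AQP8 and AQP9.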

Other observations

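Genes of the carbonic anhydrase family, most of which encode enzymes that interconvert carbon dioxide and bicarbonate, differed between the layers in both directions. CA8 passed as higher in CM at GD12 and GD15, with log2 fold changes of 1.46 ± 0.32 (SE, limma adjusted p = 0.0095) and 2.49 ± 0.32 (limma adjusted p = 0.00095). CA4, anchored at the outer face of the cell membrane, passed as lower in CM at GD12 with -3.35 ± 0.56 (limma adjusted p = 0.0024) and at GD15 with -2.45 ± 0.56 (limma adjusted p = 0.014). At GD12 its level was 2.25 ± 2.96 TPM in CM against 26.1 ± 12.1 TPM in LM (SD, n = 3 gilts). CA14 passed as lower in CM in the same states, with -2.19 ± 0.32 and -1.77 ± 0.32. At CD15 0 of 5 genes passed by limma and 2 were at an unadjusted p below 0.05, against 32.4% of all genes. At GD12 and at GD15 1 of the 5 genes passed as higher and 2 as lower, against 11.8% and 9.54% of all genes as higher and 2.58% and 3.76% as lower. In the same contrasts 8 of 8 epithelial markers passed as higher in CM in each state and 1, 5 and 0 of 10 smooth muscle markers as lower, and their part in these values was not tested. After quantile normalization CA8 no longer passed at GD12, and 3 genes passed as lower in CM at GD15 and at CD15.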
